A study of Mus musculus with 4 samples.

Results

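The SR splicing factors examined here were Srsf1, Srsf2, Srsf3, Srsf5, Srsf6, Srsf7, Srsf10 and Srsf11, taken by symbol from the deposited count matrices. All 8 were present among the 31053 genes listed. The whole brains of 4 mice were dissociated with enzymes, and each brain gave 1 single-cell droplet library (10x Genomics 3′ version 2 chemistry). All mice were C57BL/6J males of postnatal day 90. From 2 animals the cells were prepared without inhibitors. For the other 2 animals actinomycin D and triptolide, which block transcription, were present during perfusion, dissection and digestion, and anisomycin, which blocks translation, during dissection and digestion. The same batch label stands on each library, and a replicate is 1 animal. The comparison asks whether transcripts of these genes differ between cells prepared with and without inhibitors, and how the genes are spread over the cell types of the brain.

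SR proteins carry RNA recognition motifs and a tail rich in arginine and serine. They bind enhancer sequences in exons, help the spliceosome to find splice sites, and are stored in nuclear speckles. Kinases of the SRPK and CLK families phosphorylate the tail and so control where the proteins sit and what they do. Many SR genes also hold a conserved exon with a stop codon, and a transcript that includes it is sent to decay, which lets the proteins limit their own supply. Srsf1, Srsf3 and Srsf7 shuttle between nucleus and cytoplasm, and Srsf3 and Srsf7 also serve as adaptors for mRNA export. Srsf2 is the classical speckle marker. Srsf10 differs from the others in that it acts as a splicing repressor when it is dephosphorylated, as happens in heat shock.

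The 8 genes lie at separate places on 6 chromosomes of the mouse genome (GRCm38, GENCODE M21). Srsf1 (chr11:88047373-88053755) and Srsf2 (chr11:116849901-116853094) share chromosome 11, and Srsf3 (chr17:29032628-29043373) and Srsf7 (chr17:80200080-80207307) share chromosome 17. Srsf5 is at chr12:80945504-80950507, Srsf6 at chr2:162931528-162937121, Srsf10 at chr4:135855747-135869908 and Srsf11 at chr3:158010473-158036639. The annotation lists transcripts that are predicted to undergo nonsense-mediated decay for 7 of the 8 genes, with 0 for Srsf10 and 3 for Srsf11. Counts here come from tags near the 3′ end of transcripts and do not tell productive from decaying forms. Tag counts are not scaled by transcript length, so levels are compared across cells and not between genes.

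RefSeq promoter windows (GRCm38.p6, 250 bases before to 50 after a start) were found for all 8 genes, 9 windows in all because Srsf11 has 2 starts. The windows of Srsf2, Srsf7 and Srsf10 are shown, because Srsf2 and Srsf7 had the most similar levels over cell classes of any pair and Srsf10 ran against Srsf2. Capitals mark the GC box (GGGCGG) and the CCAAT box (CCAAT), each searched on both strands with overlapping matches counted. The windows are chr11:116853045-116853344 on the minus strand for Srsf2, chr17:80207256-80207555 on the minus strand for Srsf7 and chr4:135855821-135856120 on the plus strand for Srsf10.
Srsf2: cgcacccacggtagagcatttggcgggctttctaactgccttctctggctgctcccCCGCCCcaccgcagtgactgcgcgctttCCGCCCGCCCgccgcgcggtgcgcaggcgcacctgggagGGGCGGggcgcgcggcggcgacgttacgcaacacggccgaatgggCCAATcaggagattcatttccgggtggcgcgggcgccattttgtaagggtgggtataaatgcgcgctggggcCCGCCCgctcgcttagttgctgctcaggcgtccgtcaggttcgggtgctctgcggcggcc
Srsf7: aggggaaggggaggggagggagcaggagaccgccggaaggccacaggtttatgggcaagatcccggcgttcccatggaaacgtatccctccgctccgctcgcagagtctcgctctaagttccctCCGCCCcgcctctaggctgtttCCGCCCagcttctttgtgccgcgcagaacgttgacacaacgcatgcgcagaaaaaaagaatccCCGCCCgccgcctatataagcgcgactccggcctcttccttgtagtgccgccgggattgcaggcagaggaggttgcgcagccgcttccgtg
Srsf10: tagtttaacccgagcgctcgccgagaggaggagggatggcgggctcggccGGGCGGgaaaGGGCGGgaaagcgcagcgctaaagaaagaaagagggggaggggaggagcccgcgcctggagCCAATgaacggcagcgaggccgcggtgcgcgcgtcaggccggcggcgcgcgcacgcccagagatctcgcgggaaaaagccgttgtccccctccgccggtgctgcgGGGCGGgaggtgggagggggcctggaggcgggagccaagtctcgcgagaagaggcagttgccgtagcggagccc
A GC box occurred in 8 of the 9 windows of the SR factors, against 35.7% of all 32851 promoter windows, and a CCAAT box in 4 of 9, against 37.4%. Srsf2 held 5 GC boxes, Srsf7 and Srsf10 held 3 each, and the CCAAT box was present in the windows of Srsf2 and Srsf10 but not of Srsf7. The motif of AP-1 (TGANTCA), the factor family that includes Fos and Junb, was in 0 of the 9 windows and in 7.81% of all windows. The cyclic AMP response element (TGACGTCA) and the heat shock element (GAANNTTC) were likewise in 0 of 9, against 1.79% and 7.86% of all windows. Of 17 promoter windows of genes on the study's ex vivo activation list, AP-1 was also in 0. The cyclic AMP response element was in 2 of these 17 and the heat shock element in 4. With 9 windows, 0 matches cannot be told from shares as low as those of all windows. The GC content of the 9 windows ran from 56% to 71.3%, above the median of 52.7% over all windows.

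After filtering and removal of doublets, 9861 of 12487 barcodes were kept, with 2207 and 2755 cells without inhibitors and 2089 and 2810 with inhibitors. Kept cells held 4522692 to 6092861 UMIs (unique molecular identifiers, each marking 1 RNA molecule) per library, and the SR factors together 6988 to 8428. A total of 67 barcodes occurred in more than 1 library, 43 of them among kept cells. Cells were clustered without the SR factors and the other splicing genes and named by fixed markers. Of the 14 classes, 9 had at least 20 cells in every animal: neuron-like (318 cells), astrocyte-like (1886), oligodendrocyte-like (890), ependymal-like (187), choroid plexus-like (619), microglia-like (3257), macrophage/monocyte-like (163), mural-like (314) and endothelial-like (1709). A mural-like cluster of 138 cells also held 7 endothelial markers. The larger macrophage/monocyte-like cluster, of 97 cells, was led by antigen presentation genes and also held 5 lymphocyte markers. The inhibitors were checked on immediate-early genes. Over all kept cells Fos was at 273 and 156 CPM (counts per 1e+06 UMIs, after normalization) without inhibitors and at 5.33 and 5.07 CPM with them, and Junb at 390.5 and 291 against 79.0 and 87.1 CPM. Both were called higher without inhibitors (adjusted p = 0.0381 and 0.00592 in edgeR).

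All 8 SR factors were detected in every class, and their summed level differed 2.34-fold between the highest and the lowest tested class. Levels are CPM of the UMIs of a class and animal, given as mean ± SD over the 4 animals and as a description without a test. The 8 genes summed to 2095 ± 206 CPM in neuron-like cells, 1867 ± 107 in microglia-like and 1623 ± 50.2 in astrocyte-like cells. They summed to 1431 ± 62.5 CPM in mural-like, 1383 ± 121 in endothelial-like, 1249 ± 73.8 in ependymal-like and 1361 ± 212 in macrophage/monocyte-like cells. The lowest sums were those of choroid plexus-like (895 ± 112 CPM) and oligodendrocyte-like cells (1176 ± 43.4 CPM). Ordered by the mean and with all UMIs in the total, the range over animals of microglia-like cells did not overlap that of astrocyte-like cells. Nor did that of astrocyte-like cells overlap mural-like cells, nor oligodendrocyte-like overlap choroid plexus-like cells. The neuron-like and microglia-like ranges overlapped, and so did each step from mural-like to oligodendrocyte-like cells.

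**Figure D1:**
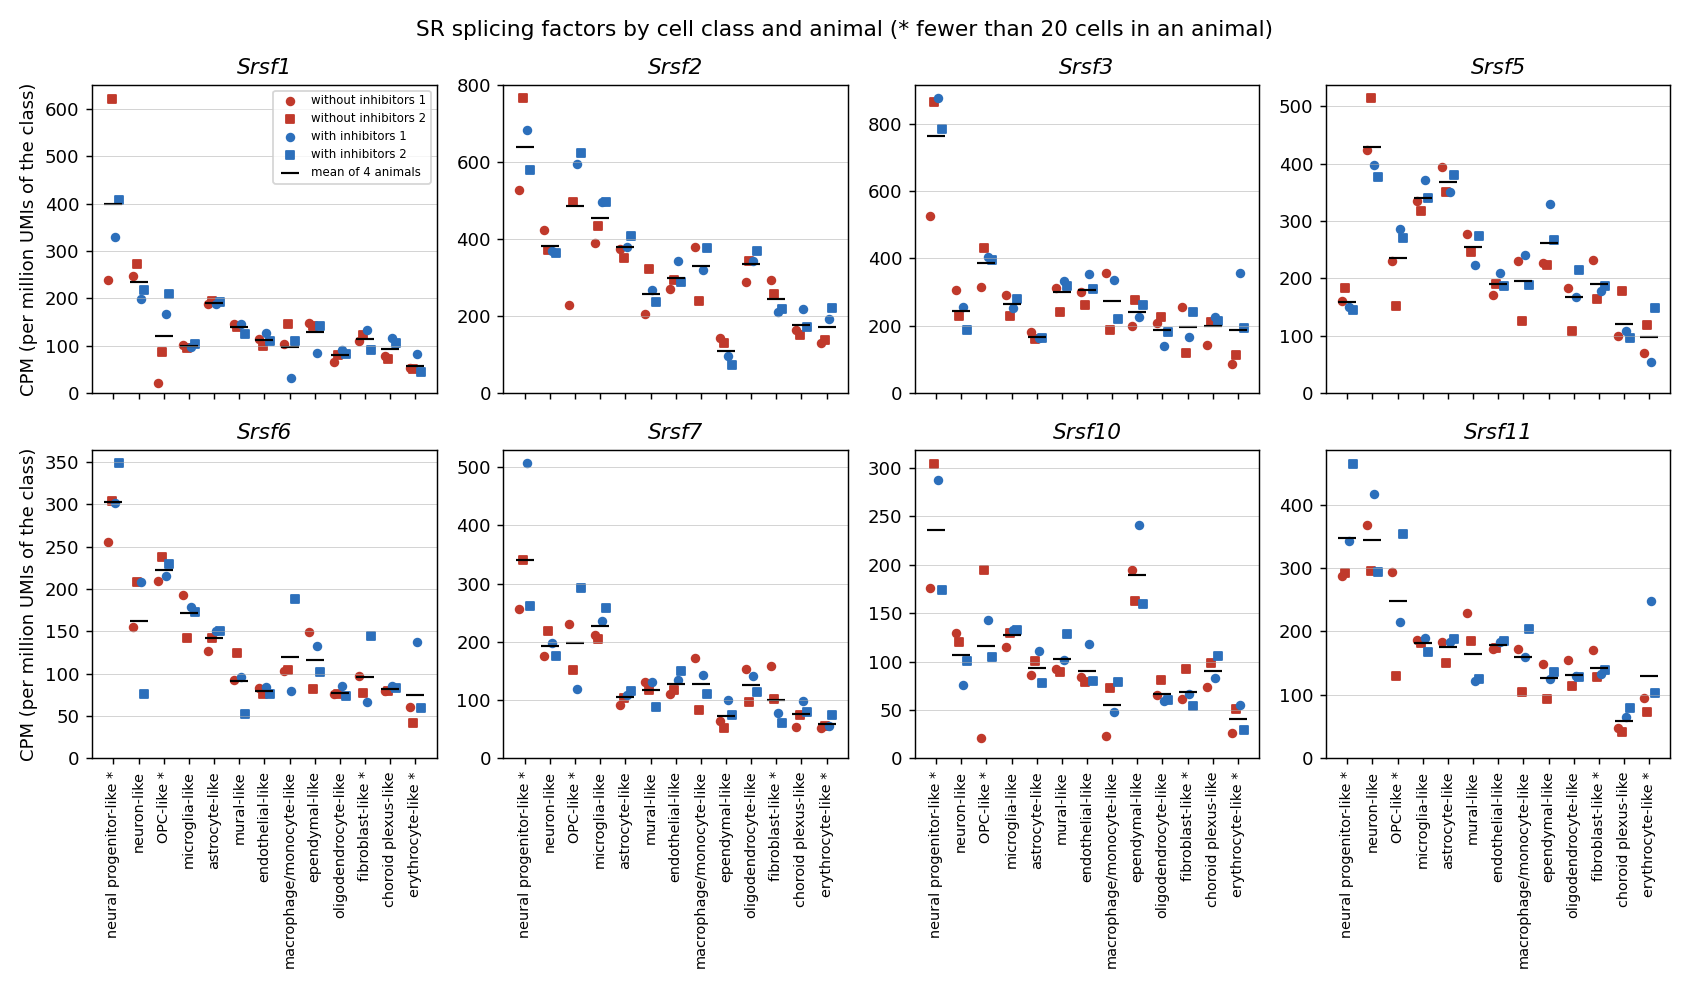
CPM of each SR factor (vertical axes, of the UMIs of the class) in 13 cell classes (horizontal axis) ordered by the summed SR factors. Each point is 1 animal, red without and blue with inhibitors, and the black dash is the mean. Srsf11 is highest in neural progenitor-like and neuron-like cells and lowest in choroid plexus-like cells, and Srsf10 is high in ependymal-like cells, in sums of unthinned cells.

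The place of choroid plexus-like cells below all other tested classes depended on what was counted in the total. Ttr, the thyroid hormone carrier that defines this epithelium, took 34.9% and 26.3% of their UMIs without inhibitors and 21.6% and 20.3% with them. It was their most abundant gene, while in the other tested classes that gene was Malat1. With the most abundant gene of each class and animal left out of the total, the SR factors summed to 1133 to 1273 CPM in choroid plexus-like cells, which overlapped the 1194 to 1388 CPM of ependymal-like cells. The choroid plexus-like range then also met the 1248 to 1401 CPM of oligodendrocyte-like cells. Microglia-like cells had 1853 to 2109 CPM and astrocyte-like cells 1791 to 1951 CPM on this scale, so that these ranges overlapped too. Neuron-like cells stood at 1891 to 2373 CPM, overlapping both. Astrocyte-like cells stayed above mural-like cells (1462 to 1597 CPM).

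Of the shuttling factors, Srsf1 was highest in neuron-like cells and Srsf3 in vascular cells. Srsf1 measured 248 and 273 CPM without inhibitors and 199 and 218 with them in neuron-like cells, above every value of the other 8 tested classes. Astrocyte-like cells followed with 187 to 194 CPM, and oligodendrocyte-like cells were lowest at 65.4 to 90.7 CPM. The mean of neuron-like cells was 2.93 times that of oligodendrocyte-like cells, with 2.19 to 3.79 times in single animals. With the most abundant gene left out of each total, the neuron-like values of Srsf1 no longer lay above all others. Nor did they in cells thinned to 1000 UMIs (0.115 to 0.353 UMIs per cell, against 0.158 to 0.217 in astrocyte-like cells). Only 26 to 45 neuron-like cells per animal, of 66 to 98 kept, were deep enough for thinning. Srsf3 had the flattest profile of the 8. It stood at 305 ± 38.1 CPM in endothelial-like and 301 ± 40.8 in mural-like cells against 167 ± 9.64 in astrocyte-like cells, a ratio of 1.83 from the highest to the lowest class. Neighbouring classes in that order overlapped throughout. Srsf7 was highest in microglia-like cells (204 to 259 CPM) and next in neuron-like cells (176 to 219 CPM), and these ranges overlapped. No other tested class reached 176 CPM of Srsf7, and ependymal-like cells had 53.0 to 101 CPM.

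Srsf2 and Srsf10 took opposite places by CPM in ependymal-like cells, the ciliated cells that line the ventricles. Srsf2 measured 143 and 130.4 CPM there without inhibitors and 96.6 and 74.0 with them, below every value of the other tested classes. Its highest mean was in microglia-like cells, at 390.3 and 435 CPM without inhibitors and 497 and 496 with them, 4.10 times the ependymal-like mean. Srsf10 measured 194 and 163 CPM in ependymal-like cells without inhibitors and 241 and 159 with them, above every value of the other tested classes. In macrophage/monocyte-like cells it had 23.0 to 78.5 CPM, on 17 UMIs in all. Leaving the most abundant gene out of each total kept both places. With every cell thinned to 1000 UMIs, Srsf2 was still lowest in ependymal-like cells in all animals (0.0732 to 0.130 UMIs per cell, against 0.136 and more elsewhere), but Srsf10 no longer lay apart. It was then at 0.0976 to 0.196 UMIs per cell in ependymal-like cells, overlapping microglia-like (0.129 to 0.151), neuron-like (up to 0.156) and mural-like cells (up to 0.195). The ependymal-like cells deep enough for thinning numbered 34 to 50 per animal. Across the 36 sums of a class and an animal, Srsf2 and Srsf10 had a Pearson r of −0.40, the lowest of the 28 pairs, and Srsf2 and Srsf7 had 0.74, the highest. These sums share animals and libraries and are not independent points, so no p is given.

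Srsf11 and Srsf5 had their highest tested level in neuron-like cells. Srsf11 measured 367 and 295 CPM in neuron-like cells without inhibitors and 417 and 294 with them, against 182 ± 9.18 in microglia-like, 179 ± 6.78 in endothelial-like and 176 ± 17.6 in astrocyte-like cells. Those 3 classes did not differ beyond their spread. Choroid plexus-like cells had 42.3 to 79.2 CPM of Srsf11, below all other tested classes, and the neuron-like mean was 5.87 times as high. With Ttr left out of the total the choroid plexus-like range rose to 57.4 to 99.5 CPM and met that of ependymal-like cells, and in thinned cells it met that of macrophage/monocyte-like cells. The neuron-like values stayed above all other tested classes in both cases, in thinned cells on 26 to 45 cells per animal. Srsf5 was highest in neuron-like cells (424 and 514 CPM without inhibitors, 398 and 377 with them), followed by astrocyte-like cells (350.1 to 394 CPM) and microglia-like cells (317 to 372 CPM), with overlap at each step. Endothelial-like cells had 172 to 209 CPM and oligodendrocyte-like cells 107 to 214 CPM of Srsf5. Srsf6 was higher in microglia-like (172 ± 21.0 CPM) and astrocyte-like cells (142 ± 11.3) than in endothelial-like (79.5 ± 4.50), choroid plexus-like (81.9 ± 3.01) and oligodendrocyte-like cells (77.7 ± 5.66), without overlap. Neuron-like cells spread from 76.5 to 208 CPM of Srsf6, over both of these ranges.

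Classes with fewer than 20 cells in an animal extended this range. Neural progenitor-like cells, of which 106 were kept (26, 29, 34 and 17 in the 4 animals), had the highest sum, at 2429 and 3673 CPM without inhibitors and 3477 and 3165 with them. Summed choroid plexus markers took 14045 CPM of these cells in animal 1 without inhibitors, against 1355 to 2555 CPM in the others. Summed erythrocyte markers took 43862 CPM in animal 2 without inhibitors, against 178 to 352 CPM in the others. The part of either marker set was not tested. Srsf3 stood at 527 and 864 CPM without inhibitors and 876 and 784 with them, above every value of the 9 tested classes. Srsf2 and Srsf6 were also above every tested class there, at 527 to 766 and 256 to 348 CPM. Srsf5 went the other way in these cells. It measured 160 and 182 CPM without inhibitors and 151 and 145 with them, on 41 UMIs, below every value of neuron-like, astrocyte-like and microglia-like cells. OPC-like cells, named by markers of oligodendrocyte precursors, summed to 1550 to 2480 CPM on 75 cells, above the 1126 to 1224 CPM of oligodendrocyte-like cells in every animal. They were led by Gpr17 and also held 4 oligodendrocyte markers. Summed oligodendrocyte markers took 13402 to 28731 CPM of their UMIs and summed OPC markers 2660 to 4231 CPM. Erythrocyte-like cells had the lowest sum of all, 819 ± 275 CPM, with a haemoglobin gene taking 15.9% to 23.4% of their UMIs. Fibroblast-like cells summed to 1153 ± 159 CPM, and olfactory ensheathing-like cells, kept from 2 of the 4 animals, to 1594 and 1197 CPM.

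The make-up of the SR factor UMIs therefore differed between classes, whatever the total. Srsf5 gave 4.33% to 6.58% of them in neural progenitor-like cells against 18.8% to 23.0% in neuron-like and 21.4% to 24.3% in astrocyte-like cells. Srsf2 gave 6.07% to 11.2% in ependymal-like cells and at least 13.8% in every animal of the other tested classes. In these unthinned sums Srsf10 gave 13.1% to 18.1% in ependymal-like cells and at most 11.3% elsewhere among tested classes. Srsf3 gave 20.2% to 23.0% in endothelial-like and 9.71% to 11.2% in astrocyte-like cells. These shares do not depend on how much of a class's RNA is taken by other genes.

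**Figure D2:**
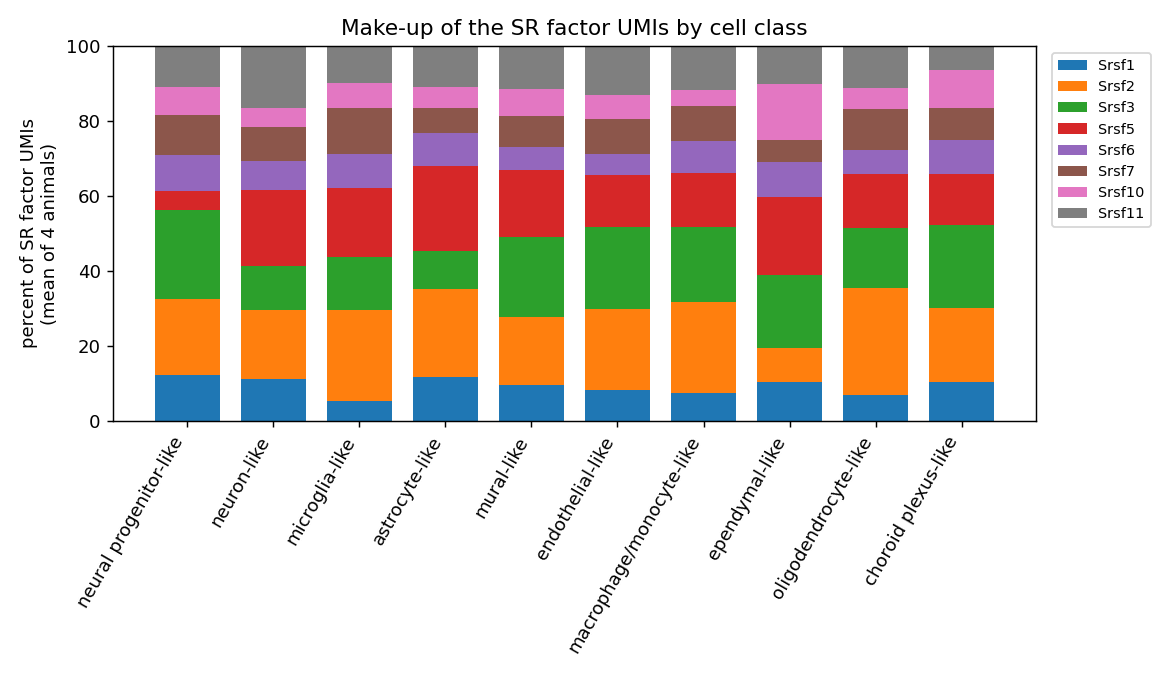
Percent of the UMIs of the 8 SR factors that each gene gave (vertical axis, mean of 4 animals) in the 9 tested classes and in neural progenitor-like cells, which had only 17 cells in 1 animal. Srsf5 (red) is narrow in neural progenitor-like cells, and Srsf2 (orange) is narrow and Srsf10 (pink) wide in ependymal-like cells.

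Between cells prepared without and with inhibitors, none of the SR factors was called changed in any comparison. The call in edgeR took an absolute log2 fold change over 0.58 and a p under 0.05 after Benjamini-Hochberg adjustment over all genes tested, with 2 animals against 2. CPM in these comparisons are after TMM normalization and so differ slightly from the levels by class. DESeq2 also called 0 of the 8 in each comparison, with 0 at its unadjusted p under 0.05. Over all kept cells 0 of 8 were called, against 0.058% of 13789 genes, and 0 of 8 passed an unadjusted p under 0.05 in edgeR. All 8 intervals lay inside the fold threshold: the 95% intervals ran from −0.39 at the lowest to 0.27 at the highest on the log2 scale. Srsf7 showed the largest estimate, at 137 and 130.3 CPM without inhibitors and 148 and 152 with them, with a log2 fold change, without over with, of −0.17 (SE 0.10, adjusted p = 0.856). Srsf2 stood at 311 and 327 CPM against 340.5 and 350.0 (log2 fold change −0.11, SE 0.09), and Srsf1 at 121 and 126 CPM against 120.4 and 119.5 (0.04, SE 0.10). For these 3 genes the groups did not overlap, 3 of 8 against 37% of all genes tested. With 2 animals a group, an exact two-sided permutation test of a single gene cannot go below 0.333.

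**Figure D3:**
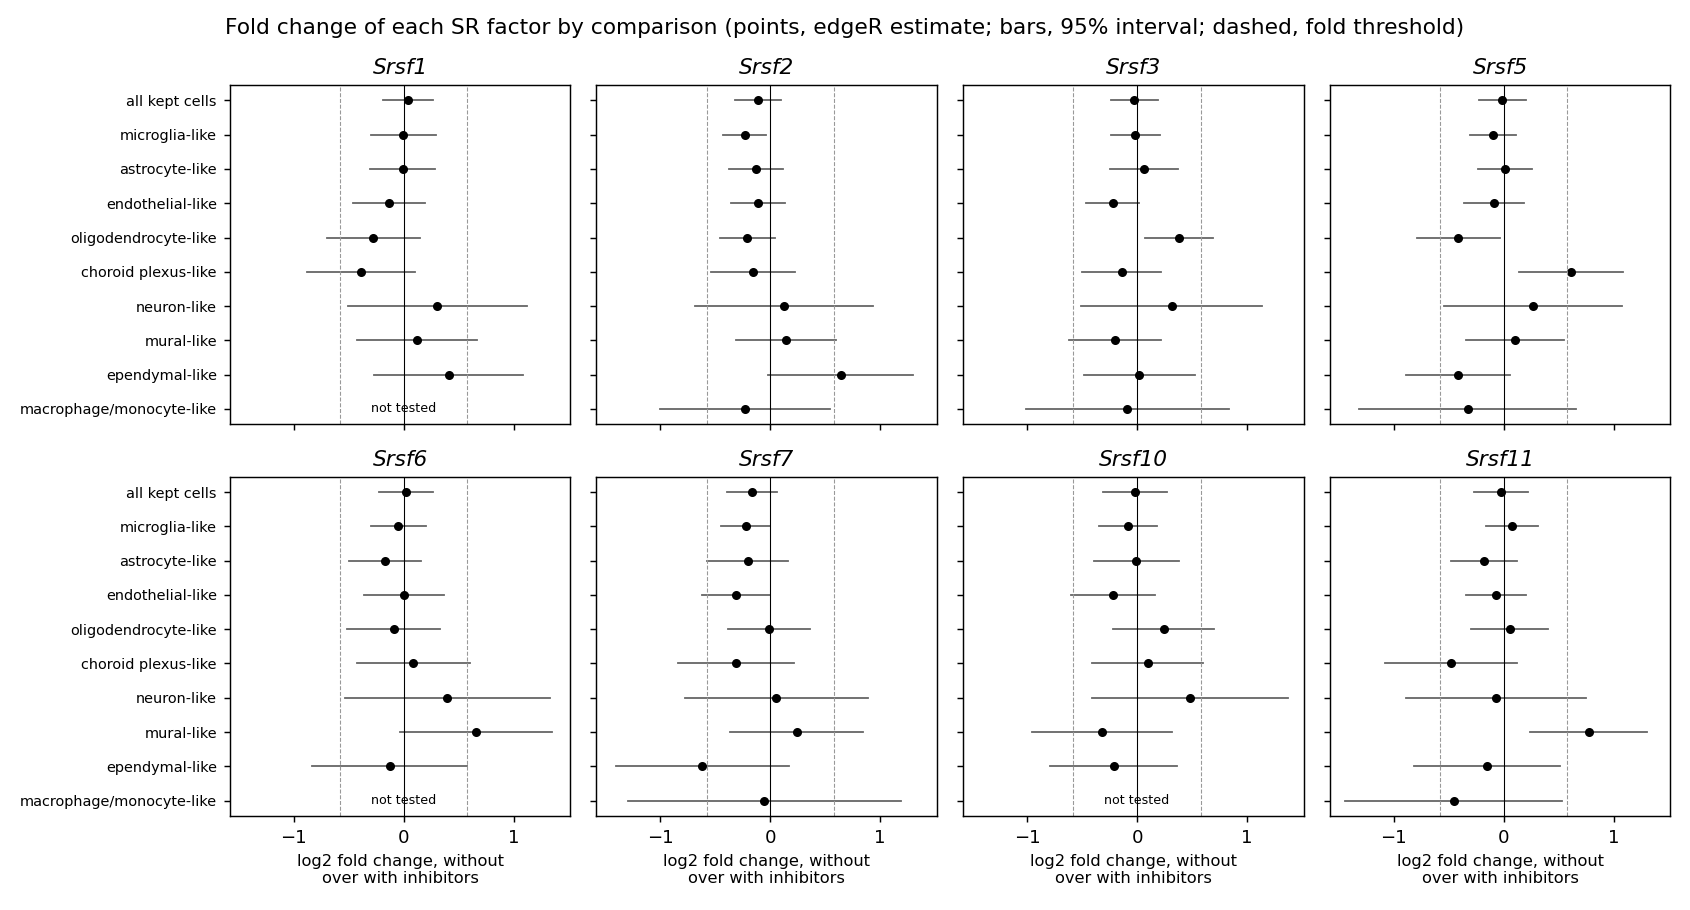
Log2 fold change of each SR factor without over with inhibitors (horizontal axis) in all kept cells and in 9 cell classes (vertical axis). Points are edgeR estimates, bars 95% intervals and dashed lines the fold threshold of 0.58 in either direction. Intervals are narrow in all kept cells and in microglia-like cells and wide in macrophage/monocyte-like, ependymal-like and neuron-like cells.

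In microglia-like cells, the brain's resident macrophages, 0 of 8 were called, against 0.457% of 8759 genes, and 2 of 8 had an unadjusted p under 0.05, as did 6.21% of all genes tested. These were Srsf2 and Srsf7, both lower without inhibitors. Srsf2 measured 395 and 439 CPM without inhibitors and 488 and 494 with them (log2 fold change −0.23, 95% interval −0.43 to −0.04, adjusted p = 0.642). Srsf7 measured 214 and 207 CPM against 232 and 258 (−0.22, SE 0.11, adjusted p = 0.801). Each group's values lay apart for both genes and for Srsf10 (117 and 130.6 against 131 and 132 CPM), 3 of 8 against 34.2% of all genes tested. The other 5 overlapped, and all 8 intervals stayed within −0.45 and 0.32. In 7 of 8 the estimate was lower without inhibitors, with a median of −0.07 where all tested genes had 0.00065. Of all genes tested, 50.2% had a higher estimate without inhibitors.

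In astrocyte-like cells 0 of 8 were called, against 0.0493% of 8119 genes, and 0 passed an unadjusted p under 0.05. The groups of Srsf2, Srsf6 and Srsf7 did not overlap, 3 of 8 against 32.8%, and Srsf7 was at 91.8 and 103 CPM without inhibitors and 108 and 118 with them (−0.21, SE 0.19). In endothelial-like cells 0 of 8 were called, against 0.036% of 8327 genes, and 1 of 8, Srsf7, had an unadjusted p under 0.05, as did 5.4% of all genes tested. It measured 110 and 119 CPM without inhibitors and 133 and 151 with them (−0.31, SE 0.15, adjusted p = 0.903). Srsf3 (298 and 266 against 347 and 309 CPM) and Srsf11 (171 and 178 against 181 and 185 CPM) also lay apart, 3 of 8 against 34%. All 3 were lower without inhibitors, and the 8 estimates had a median of −0.12 where all tested genes had 0.00083.

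Srsf7 lay lower without inhibitors, with no overlap between groups, in 5 of 9 classes, which were the microglia-like, astrocyte-like, endothelial-like, ependymal-like and choroid plexus-like cells. Of the 626 genes tested in all 9 classes, 2.24% lay below without inhibitors in at least 5 of them. This gene was singled out after its values were seen, the classes share animals, and none of these differences passed the test in its class. Its largest absolute estimate was in ependymal-like cells, at 63.9 and 53.8 CPM against 100.2 and 74.2 (−0.62, SE 0.38, adjusted p = 0.997).

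In oligodendrocyte-like cells, the myelinating glia, 0 of 8 were called, against 0.199% of 6517 genes, and 2 of 8 had an unadjusted p under 0.05, as did 9.67% of all genes tested. Srsf3 was higher in both animals without inhibitors, at 205 and 225 CPM against 137 and 188 (0.38, SE 0.15, adjusted p = 0.373). Srsf5 overlapped between groups, at 181 and 107 CPM against 165 and 222 (−0.41, SE 0.19, adjusted p = 0.460). It was called only when animal 1 without inhibitors was left out, at −0.87 (adjusted p = 0.0108), a fit in which 1 animal stands for that group. The groups did not overlap for 4 of the 8 genes, against 38.9% of all genes tested.

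In choroid plexus-like cells 0 of 8 were called, against 4.95% of 4630 genes. At an unadjusted p under 0.05 stood 1 of 8, a smaller share than the 20% of all genes tested (926 genes). That gene was Srsf5, which measured 114 and 177 CPM without inhibitors and 100.4 and 91.6 with them (log2 fold change 0.61, 95% interval 0.14 to 1.09, adjusted p = 0.112). Without animal 1 of the group without inhibitors it was called at 0.88 (adjusted p = 0.00910), and with every cell thinned to 1000 UMIs the estimate was 0.14. Median depth and the Ttr share of this class also differed between the groups: 2725 and 2378 UMIs per cell without inhibitors against 1931 and 1327 with them, and the part of either in the result was not tested. Srsf11, at 54.2 and 42.0 CPM against 60.7 and 74.95, went the other way (−0.48, SE 0.29, adjusted p = 0.393). The groups lay apart for 4 of 8, against 48.8%.

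In neuron-like cells 0 of 8 were called, against 0.0292% of 3427 genes, and 0 had an unadjusted p under 0.05. Intervals were wide there, from −0.88 to 1.38. The groups lay apart for Srsf1, Srsf5 and Srsf10, all higher without inhibitors, 3 of 8 against 27.1%. In 7 of 8 the estimate was higher without inhibitors, as in 50.3% of all genes tested, with a median of 0.29 where all tested genes had 0.0031. In mural-like cells 0 of 8 were called, against 0.159% of 4415 genes, with 1 of 8, Srsf11, at an unadjusted p under 0.05, as were 6.48% of all genes tested. Srsf11 measured 236 and 185 CPM without inhibitors and 118 and 124 with them (0.77, SE 0.26, adjusted p = 0.408). Srsf6 was at 95.5 and 125 CPM against 93.8 and 51.9 (0.66, SE 0.35, adjusted p = 0.804), and 3 of 8 genes lay apart, against 34.9%. Summed choroid plexus markers took 14243 CPM in the mural-like cells of animal 1 without inhibitors and 1226 to 2192 CPM in the other animals. Summed erythrocyte markers took 35235 CPM in that same library against 1484 to 6435 CPM in the others, and the part of either marker set in these values was not tested.

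In ependymal-like cells 0 of 8 were called, against 0% of 4149 genes, where 170 genes had an unadjusted p under 0.05, none of the 8 among them. Srsf2 was higher without inhibitors (141 and 132 against 96.2 and 74.2 CPM, log2 fold change 0.64, SE 0.32) and Srsf5 lower (224 and 227 against 329 and 268 CPM, −0.42, SE 0.23). Both had an adjusted p of 0.997, and the groups lay apart for 4 of 8, against 31.5%. In macrophage/monocyte-like cells 5 of the 8 had enough UMIs to be tested and 0 were called, against 0.416% of 961 genes. For 0 of these 5 the groups lay apart, against 34.7%, and intervals reached from −1.44 to 1.19. Srsf1, Srsf6 and Srsf10 had 32, 36 and 17 UMIs there and were not tested. Summed neutrophil markers took 6740 and 10156 CPM of this class without inhibitors and 0 and 12436 CPM with them. Summed macrophage/monocyte markers took 10693 to 15040 CPM. The part of other blood cells in the values of this class was not tested.

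Whether the effect of the inhibitors on a gene differed between classes was tested in 1 edgeR model of all 9 classes with the animal as a block. None of the 8 SR factors was called (adjusted p under 0.05), against 0.635% of 6612 genes. In data simulated with a 2-fold change in microglia-like cells alone, this test recovered 16.5% of 200 changed genes. A count of 0 called therefore does not show an equal effect in all classes. Srsf5, which had a negative estimate in oligodendrocyte-like and a positive one in choroid plexus-like cells, had the lowest adjusted p, at 0.627, and the other 7 lay between 0.966 and 0.999. Srsf5 alone of the 8 had an unadjusted p under 0.05 in this test, as did 419 of all genes. Leaving out animal 1 without inhibitors brought Srsf5 to an adjusted p of 0.0671. Over the 69 tests of the SR factors in single classes, 26 estimates were higher without inhibitors and 43 lower. Of all genes tested, 48.2% (oligodendrocyte-like) to 51.7% (mural-like) were higher in single classes. Of the 69 tests, 7 had an unadjusted p under 0.05, and 52 had an interval within 1 log2 unit of 0. With all kept cells included, 7 of 77 tests (9.09%) had an unadjusted p under 0.05, against 7.05% of the 63093 tests of all genes in these comparisons.

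Genes that work with the SR factors gave the same count. Of 18 other SR and SR-related factors (such as Srsf4, Srsf9, Tra2a and Tra2b), 9 SR kinases and import factors (such as Srpk1, Clk1 and Tnpo3), 26 hnRNP and PTB proteins, which often oppose SR proteins, and 33 core spliceosome components, 0 were called in all kept cells or in any class, by edgeR or by DESeq2. Over these 10 comparisons edgeR gave an unadjusted p under 0.05 in 8 of 157, 3 of 68, 11 of 234 and 15 of 267 tests of the 4 lists in that order, which is 5.1%, 4.41%, 4.7% and 5.62%, each below the 7.05% of all genes. DESeq2 gave 0, 0, 4 and 0 such values. In microglia-like cells 15 of 17 other SR and SR-related factors had lower estimates without inhibitors (median −0.10), with 3 at an unadjusted p under 0.05. The core spliceosome list had 21 of 33 higher there, with a median of 0.06 and 3 at an unadjusted p under 0.05. Of all genes tested there, 50.2% were higher. The other SR and SR-related factors split 9 higher to 8 lower in astrocyte-like, 8 to 9 in endothelial-like and 3 to 14 in oligodendrocyte-like cells. They split 7 to 9 in choroid plexus-like, 10 to 6 in neuron-like, 5 to 12 in mural-like, 6 to 9 in ependymal-like and 2 to 5 in macrophage/monocyte-like cells. Over all kept cells the medians were −0.02 for the SR factors, −0.06 for the other SR factors, −0.02 for kinases and import, −0.04 for hnRNP and PTB proteins and 0.07 for the core spliceosome, with −0.0084 for all tested genes. Hnrnpa2b1 in choroid plexus-like cells, singled out after its values were seen, had the lowest adjusted p of the 4 lists, 0.0157, at 362 and 336 CPM without inhibitors against 226 and 254 with them (0.55, SE 0.15), under the fold threshold.

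Microglia-like cells without inhibitors differ in how much of the ex vivo activation program they carry, so the SR factors were also read within that class. Cells were thinned to 1000 UMIs, and those with more than 7 UMIs from a list of 25 activation genes (the 99th percentile of the cells with inhibitors) were set against the rest. This put 253 (38.9%) and 223 (29.9%) of the cells without inhibitors above the limit, and 6 (0.98%) and 2 (0.264%) of those with them. A total of 91 of the 2767 cells lay within 1 UMI of the limit, which divides a range and not a pair of cell types. The summed SR factors were at 1.83 and 1.74 UMIs per cell above the limit and at 1.90 and 1.80 in the rest of the same animals. Srsf2 was lower above the limit in both animals. It was at 0.316 and 0.372 UMIs per cell above the limit and at 0.402 and 0.490 below it, while the remaining cells of the animals with inhibitors had 0.497 and 0.490. Srsf5 (0.379 and 0.359 above, 0.342 and 0.326 below) and Srsf7 (0.261 and 0.211 above, 0.198 and 0.193 below) were higher above the limit. So was Srsf11 (0.182 and 0.197 above, 0.168 and 0.184 below), while Srsf1 was lower (0.0949 and 0.0717 above, 0.101 and 0.111 below). Srsf3, Srsf6 and Srsf10 differed in direction between the animals. Srsf6 was at 0.150 above and 0.216 below in animal 1, and at 0.135 and 0.132 in animal 2. At the 95th percentile instead, a limit of 5 UMIs, Srsf2 was at 0.344 and 0.399 above and 0.388 and 0.487 below, and Srsf6 at 0.156 and 0.122 above and 0.218 and 0.139 below. Srsf1 and Srsf5 kept their direction there, while Srsf7 was at 0.243 and 0.199 above and 0.207 and 0.198 below. The gap of Srsf7 in animal 2 thus all but closed. Srsf11 was at 0.177 and 0.185 above and 0.171 and 0.190 below, so its direction turned in animal 2. At the limit of 7 UMIs the activation genes took 25.6 and 19.9 of the 1000 UMIs above it and 2.74 and 2.73 in the rest. The part of this share of the fixed total in the values of the SR factors was not tested. These values are a description without a test.

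Within classes, some clusters stood apart in SR factors. A microglia-like cluster of 107 cells, led by Bcl2a1a, Gng10 and Tyrobp, summed to 641 and 823 CPM without inhibitors and 809 and 1211 with them, against 1771 to 2028 CPM in the main cluster of 2359 cells. That cluster had a median depth of 892 UMIs and 5 raised microglia markers, against 1491 UMIs and 8 markers in the main one. Malat1, a long RNA kept in the nucleus, was at 1764 to 20484 CPM in that cluster and at 62802 to 71655 CPM in the main one. Srsf3 was the exception, with 157 to 454 CPM on 28 UMIs against 235 to 296 CPM, while Srsf1 had 2 UMIs in all. An astrocyte-like cluster of 160 cells led by 6330403K07Rik and Gfap, with Malat1 at 30411 to 51601 CPM, summed to 1083 to 1535 CPM, and its Srsf1 was at 0 to 110 CPM on 15 UMIs. Its median depth was 817.5 UMIs, against 1422 in the astrocyte-like cluster led by Agt and 1814.5 in that led by Hapln1. The part of depth in the values of these clusters was not tested. The astrocyte-like cluster led by Agt had 219 to 235 CPM of Srsf1 and the one led by Hapln1 161 to 180 CPM, without overlap over the 4 animals, while their summed SR factors overlapped (1532 to 1700 and 1556 to 1782 CPM). The mural-like cluster led by Kcnj8 summed to 1673 to 1788 CPM against 1258 to 1549 CPM in the mural-like cluster led by Ano1, with median depths of 986.5 and 4584 UMIs. The summed SR factors of the 3 endothelial-like clusters overlapped, as did those of both oligodendrocyte-like clusters.

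**Figure D4:**
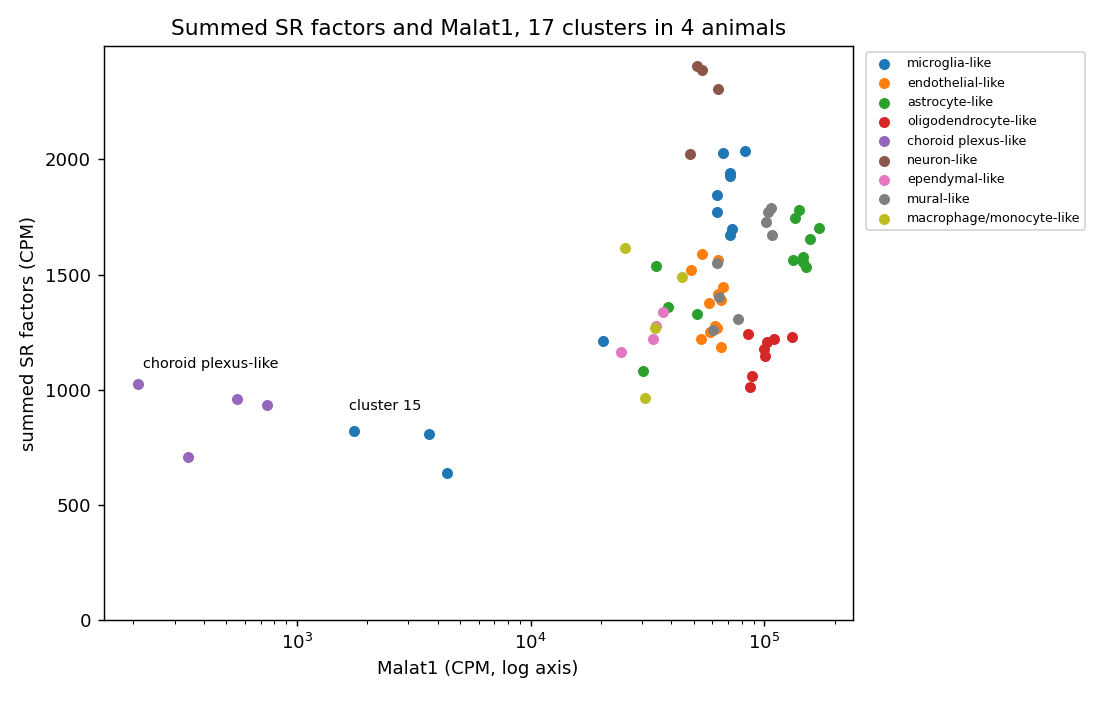
Summed CPM of the 8 SR factors (vertical axis) against CPM of Malat1 (horizontal axis, log scale) for 17 clusters with at least 20 cells in every animal. Each point is a cluster in 1 animal, coloured by class. Choroid plexus-like cells and microglia-like cluster 15, of 107 cells, have low values on both axes, and neuron-like cells reach the highest SR factor sums at a middle Malat1 level.

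Malat1 was low in the microglia-like cluster of 107 cells and in choroid plexus-like cells (740 to 2307 CPM), both with low SR factor sums, but the order of the classes did not follow Malat1. Astrocyte-like cells held 132278 to 152146 CPM of Malat1 and neuron-like cells 50469 to 60684 CPM, while neuron-like cells had the higher SR factor level. With Malat1 left out of the totals, their SR factor ranges overlapped (1791 to 1951 and 1891 to 2373 CPM). Oligodendrocyte-like cells combined 95306 to 126267 CPM of Malat1 with one of the lowest sums. Whether the amount of nuclear RNA in a cell sets part of these levels was not tested.

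The 5 genes whose levels over the 36 sums were most like the summed SR factors, among 621 genes tested in every class, were Rbm25 (Pearson r = 0.92), Clk1 (0.87), Tra2b (0.86), Ddx5 (0.86) and Ttc14 (0.85). Rbm25 encodes a splicing regulator with an RS-like region, Clk1 a kinase of SR proteins, Tra2b an SR-related splicing factor and Ddx5 an RNA helicase. Rbm25 ran from 365 to 416 CPM in neuron-like cells to 55.1 to 67.8 CPM in choroid plexus-like cells. Clk1 had mean levels of 354 CPM in neuron-like, 289 in astrocyte-like, 172 in microglia-like and 29.3 in choroid plexus-like cells.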

How the data were processed

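UMI counts per gene and cell barcode were deposited by the authors as 1 matrix per library, made with Cell Ranger 3.0.0 against mm10, with reads demultiplexed by bcl2fastq; cell classes were rebuilt here. Barcodes with at least 400 genes and at most 20% mitochondrial UMIs were kept, and 206 barcodes (2.05%) were removed as doublets by 20 nearest neighbours among simulated doublets. Cells were clustered (Leiden, resolution 1, 30 components of 2000 variable genes, 128 splicing and activation genes left out) and named where at least 3 fixed markers were raised. The 70 cells of 1 cluster stayed unnamed. Counts were summed per class and animal and tested with edgeR 4.0.16 (quasi-likelihood F test, TMM, filterByExpr, Benjamini-Hochberg over all genes tested, R 4.3.3), with DESeq2 1.42.0 as an alternative, and the fits were tested on simulated data. Of 200 genes given a 2-fold change, edgeR recovered 70.5% in all kept cells, 64% in microglia-like and 33.5% in mural-like cells. Kept libraries held 4522692 to 6092861 UMIs, which limits rare classes most. Levels by class carry no test. The genes and lists were chosen with earlier results of these data known. The rule for named genes took the 8 SR factors, called genes of the other splicing lists (there were 0), Fos and Junb, and the 5 genes most like the summed SR factors. Hnrnpa2b1, Malat1, Ttr and leading genes of clusters were named after their values were seen. The activation list comes from other animals of the study. Each animal is a separate brain, and the animals are the replicates. edgeR shares its estimates of spread between animals across genes. Its p-values and intervals therefore do not rest on a gene's own few animals alone. The SE is the absolute log2 fold change divided by the square root of the F value. Intervals are 95%.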

Additional observations from a re-analysis of the deposited data

How the results depend on the processing

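Alternatives were DESeq2, RLE size factors, no filter on low counts, a replicate block, stricter cell filters, no doublet removal, thinning to 1000 UMIs, coarser clusters and leaving out each animal. Of 898 estimates for SR factors under an alternative, 96 had the other sign, all with an absolute main log2 fold change of at most 0.40, and 2 were called. Leaving out 1 animal gave 0 to 1 SR factors called in oligodendrocyte-like cells and likewise 0 to 1 among the choroid plexus-like. The call was Srsf5 in both, without animal 1 of the group without inhibitors, and the cause was not tested. No other alternative called an SR factor. The ratio for Srsf7, level in microglia-like over ependymal-like cells, was 3.12, and 4.17 in thinned cells, and the cause was not tested. Of 9 ratios of SR factors above over below the activation limit, 4 moved by more than the spread between animals at the 95th percentile. With the replicate block 0 SR factors were called in every comparison. Deviations of animals with the same number correlated at 0.053 over all kept cells and at −0.14 (neuron-like) to 0.15 (macrophage/monocyte-like) in classes, so the numbers were not taken as pairs. The crossed replicate block in neuron-like cells, added after seeing the data, called 0 genes, the block 2 and the fit without it 1. Counts of all genes called moved most in all kept cells (8, with 0 to 74 when 1 animal was left out and 168 with no filter on low counts), endothelial-like (3, with 0 to 56), choroid plexus-like (229, with 67 to 293), oligodendrocyte-like (13, with 3 to 34), mural-like (7, with 1 to 27), ependymal-like (0, with 0 to 29) and macrophage/monocyte-like cells (4, with 0 to 19). With 2 animals a group and 163 to 318 cells in the 4 smallest tested classes, intervals for single SR factors there reached beyond 1 log2 unit.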

Other observations

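Barcodes that the filters removed differed in their SR factor content. Barcodes with fewer than 400 genes (457 and 627 without inhibitors, 346 and 465 with them) held 294 and 242 CPM of summed SR factors without inhibitors and 496 and 478 CPM with them, against 1434 and 1383 CPM and 1548 and 1521 CPM in kept cells. Barcodes with a mitochondrial share over 20% were also lower than kept cells in all 4 libraries on this scale, at 1253 and 1171 CPM without inhibitors and 1043 and 1378 CPM with them. With mitochondrial UMIs left out of the total the comparison turned in 3 of the 4 libraries. Of the remaining UMIs of these barcodes the SR factors took 1723 and 1723 CPM without inhibitors and 1498 and 1872 CPM with them, against 1535 and 1484 CPM and 1656 and 1633 CPM in kept cells. The cell types behind these barcodes were not determined.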
